A study of Mus musculus with 10 samples.

Results

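Cadherins and protocadherins are the calcium-dependent adhesion proteins of the cadherin superfamily, and their mRNA levels were measured here in lumbar motor neurons of transgenic and wild-type mice. Members were all gene entries whose symbol in the deposited tables is Cdh or Pcdh followed by a number or a cluster code. This gave 62 genes of the 18698 in those tables, and 32 of the 62 belong to the clustered protocadherins. HSA-NRTN mice carry a transgene in which the human skeletal actin promoter drives neurturin, a ligand of the RET receptor system, in muscle fibres, so the motor neurons themselves are not the cells targeted by the promoter. The controls were wild-type littermates, and each genotype had 5 mice, 3 females and 2 males, with 1 library each. The labels give neither age nor strain. Motor neurons with a visible nucleus and nucleolus, above a minimum cell area, were cut from frozen lumbar spinal cord sections by laser capture. About 50 cells were pooled per mouse, and full-length cDNA was made by Smart-seq2 and fragmented with Tn5.

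A classical cadherin binds the same or a related cadherin on the neighbouring cell, and its cytoplasmic tail holds catenins that reach the actin cytoskeleton. Type II cadherins are known for their differing combinations in motor neuron pools of the embryonic spinal cord, where they take part in sorting the pools. Clustered protocadherins are chosen gene by gene from alpha, beta and gamma arrays and give each neuron a surface identity used in dendrite self-avoidance. Non-clustered protocadherins of the delta groups act in axon growth, synapse formation and cell sorting, in part through the WAVE actin complex. The labels do not say which muscles the captured motor neurons served, and for a pool a smaller share of cells with a transcript and less transcript per cell cannot be told apart.

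Counts assigned to genes ranged from 1875971 to 6641695 per library, and the 62 genes together received 79792. Levels are given as CPM, counts relative to a library size scaled by edgeR's TMM factors. The 7 motor neuron markers, among them Chat, Slc18a3 and Isl1, had counts in all 10 libraries, with a summed level of 2445 to 5395 CPM. HSA-NRTN replicate 2, the shallowest library, and wild-type replicate 1 held the most oligodendrocyte marker signal, 1419 and 641 CPM summed over 6 genes against 201 to 475 CPM in the other 8 libraries. The same 2 libraries had the highest summed level of 4 inhibitory interneuron markers, 159.97 and 172 CPM against 0.688 to 101 CPM. In wild-type replicate 1 nearly all of it came from Slc6a5 (146 CPM) and Slc32a1 (25.9 CPM), with Gad2 at 0 and Gad1 at 0.230 CPM. All 4 markers had counts in HSA-NRTN replicate 2. Counts for 2 members, Cdh19 and Cdh5, lay mostly in these libraries and are given with those values below.

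Among the 62 members, the 3 highest measured mRNA levels per kb were those of non-clustered protocadherins. To compare genes, the mean CPM of the 10 libraries was divided by the kilobases of exon that no other annotated gene overlaps. Pcdh7 (48.4 ± 14.6 CPM per kb, SD, n = 10) and Pcdh9 (48.3 ± 9.45) came first, followed by Pcdh17 (22.6 ± 5.17), the type II cadherins Cdh12 (17.99 ± 5.197) and Cdh22 (12.6 ± 4.46), and the beta cluster gene Pcdhb9 (7.899 ± 3.09). The order of Pcdh7 and Pcdh9 was not settled, since Pcdh7 was the higher in 6 of 10 libraries. It also rests on the length used, since over all exons Pcdh7 stood at 38.2 and Pcdh9 at 48.3 CPM per kb. Pcdh9 exceeded Pcdh17 in 10 of 10 libraries, Pcdh17 exceeded Cdh12 in 6, Cdh12 exceeded Cdh22 in 8 and Cdh22 exceeded Pcdhb9 in 9. The 3 leading genes carried 49.5% of the members' summed level per kb. By family, the delta-1 protocadherins held 40.7% of it, type II cadherins 19.8%, the beta cluster 18.6% and the delta-2 protocadherins 13.5%. The remaining families held 2.67% (other cadherins), 2.05% (classical type I), 1.49% (other non-clustered protocadherins), 0.911% (gamma cluster) and 0.276% (alpha cluster). The alpha and gamma shares hold only reads that could be assigned to 1 gene of an array with shared exons, as described below, and do not rank those arrays against the other families.

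**Figure D1:**
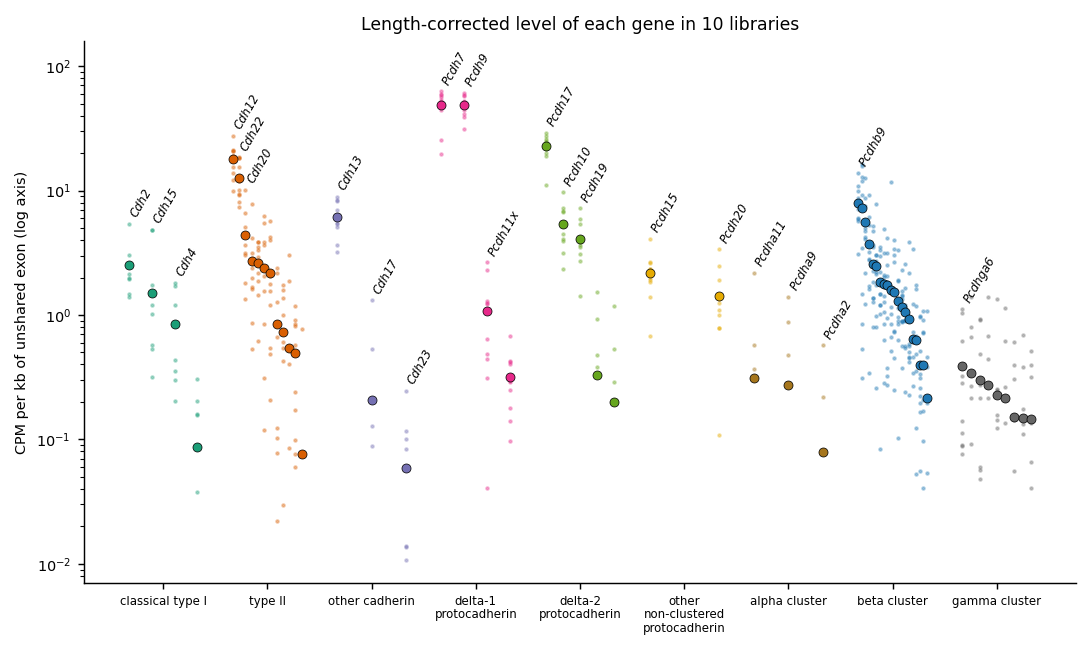
Each large dot is the mean level of 1 gene over 10 libraries, in CPM per kb of unshared exon on a log axis, and each small dot is 1 library. Libraries at 0 enter the mean and cannot be drawn on this axis. Pcdh7 and Pcdh9 lie highest, at 48.4 and 48.3 CPM per kb, and the alpha and gamma cluster genes, whose reads in shared exons may be missing, lie at or below 0.389.

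No member passed the test between HSA-NRTN and wild-type motor neurons in edgeR's quasi-likelihood test with Benjamini-Hochberg adjustment over all 11630 genes tested. Of the 62 members, 35 had enough counts to be tested and 27 did not, and members called at an adjusted p under 0.05 numbered 0 of 35, against 0.0086% of all genes tested. The unadjusted p was under 0.05 for 0 of 35 members and for 4.83% of all genes. The smallest unadjusted p was 0.059, for Cdh15, and every adjusted p was 0.999. The difference was positive for 17 members and negative for 18, with a median log2 fold change of -0.03, beside -0.01 over all genes tested. No member had 5 HSA-NRTN values that all lay above or all lay below the 5 wild-type values, as 1.25% of tested genes had. DESeq2 and limma voom also called 0 members, where they called 0.8% and 0.0258% of the genes they adjusted. At an unadjusted p under 0.05, voom gave Pcdhb22 alone of 35 members (background 5.76%), and DESeq2 gave 5 of 59 (background 5.21%), namely Cdh15, Pcdh8, Pcdhb6, Pcdhga12 and Pcdhga7. In the authors' deposited table, 0 of the 46 members with an adjusted p had one under 0.05, against 1.05% of genes there, and the smallest was 0.136, for Pcdh8. Summed over all 62 members, the level was 1803 ± 170 CPM (SD, n = 5) in wild-type and 1744 ± 163 CPM (SD, n = 5) in HSA-NRTN libraries.

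The precision of these differences varied by gene. For 5 members, all among the most abundant, the 95% interval of the log2 fold change stayed within 1 unit of 0. These were Pcdh7, Pcdh9, Pcdh17, Cdh12 and Cdh22. For the other 30 tested members a change of 1 log2 unit in at least 1 direction lay inside the interval, and the median standard error over the 35 was 0.67.

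**Figure D2:**
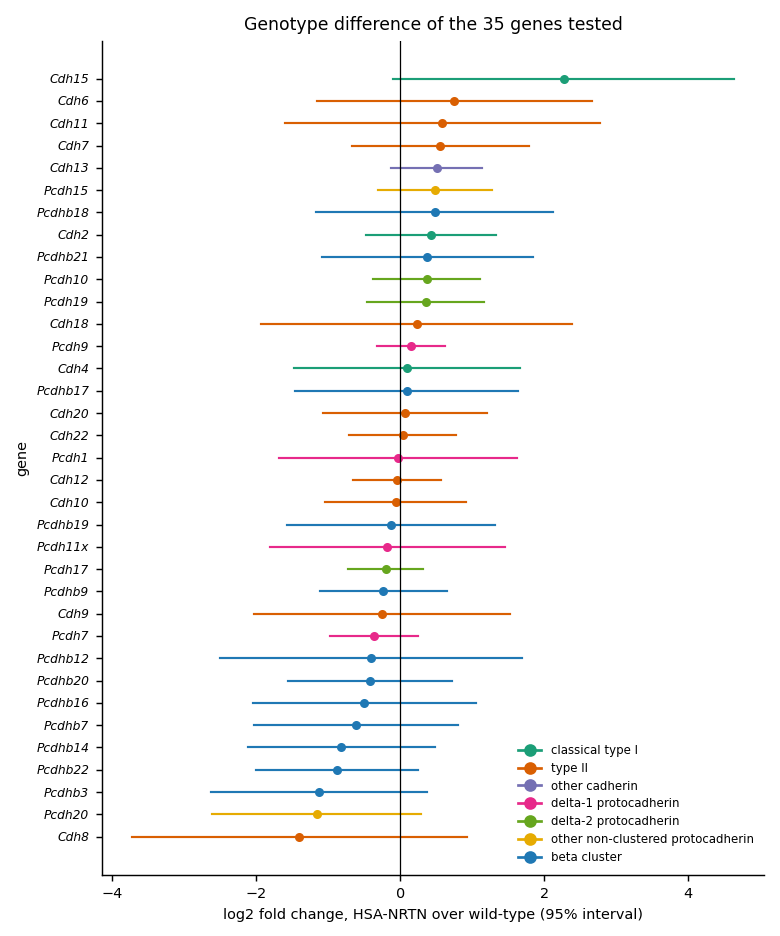
Points are log2 fold changes of HSA-NRTN over wild-type from edgeR for the 35 tested members, 1 line per gene, and bars are 95% intervals coloured by family. Every interval spans 0, and the bars are shortest for Pcdh9 (-0.32 to 0.62) and longest for Cdh15 (-0.10 to 4.64).

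Among the delta-1 protocadherins, Pcdh9 varied least relative to its level over the 10 libraries. In wild-type libraries alone Pcdh7 varied less, at 456 ± 27.9 CPM against 311 ± 75.1 CPM for Pcdh9 (SD, n = 5). Pcdh9 (chr14:93013410-93890679 in GRCm38) measured 414, 346, 279, 301 and 213 CPM in wild-type replicates 1 to 5 and 388, 266, 319.6, 396 and 356 CPM in HSA-NRTN replicates 1 to 5. The HSA-NRTN values lay inside the wild-type range, and the log2 fold change was 0.15 (SE 0.22, 95% interval -0.32 to 0.62). Pcdh7, also known as NF-protocadherin and studied in axons and in cell sorting of the embryo, lies at chr5:57717967-58133230. It measured 468, 499, 445, 434 and 434 CPM in the wild-type and 165, 215, 526, 372 and 495 CPM in the HSA-NRTN libraries. HSA-NRTN replicates 1 and 2 lay below all other libraries, while the other 3 HSA-NRTN values ran from below to above the wild-type range. The log2 fold change over the genotypes was -0.36 (SE 0.29, 95% interval -0.98 to 0.25). Without HSA-NRTN replicate 1, 2 or 3 it was -0.17, -0.23 and -0.55. The exons of Pcdh7 overlap those of another annotated gene over part of their length, with 78.9% unshared, and the kit does not mark strand. Pcdh11x, X-linked, ranged from 0.566 to 36.9 CPM, and Pcdh1 from 0.861 to 5.95 CPM. Their log2 fold changes were -0.18 and -0.03.

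Pcdh17, a delta-2 protocadherin that gathers the WAVE complex at axon contacts, was the third most abundant member per kb. It measured 378, 261.1, 279, 336 and 318 CPM in wild-type and 326, 143, 245, 298 and 355 CPM in HSA-NRTN libraries. The lowest value was that of HSA-NRTN replicate 2, the other 4 HSA-NRTN values lay within or near the wild-type range, and the log2 fold change was -0.20 (SE 0.25, 95% interval -0.72 to 0.32). Pcdh10 (OL-protocadherin) measured 73.9 ± 32.1 CPM (SD, n = 5) in wild-type and 95.4 ± 37.7 CPM (SD, n = 5) in HSA-NRTN libraries, with a log2 fold change of 0.37 (SE 0.35, 95% interval -0.37 to 1.105). It was 0.14 without HSA-NRTN replicate 2 and 0.19 without wild-type replicate 5. Pcdh19, an X-linked gene whose human counterpart is known from an epilepsy of females, measured 37.3 ± 22.5 CPM (SD, n = 5) in wild-type and 47.5 ± 10.6 CPM (SD, n = 5) in HSA-NRTN libraries, with a log2 fold change of 0.35 (SE 0.38, 95% interval -0.47 to 1.17). Pcdh18 had 61 counts in all, 52.5% of them in 1 library, and was not tested.

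Pcdh15 and Pcdh20 make up the other non-clustered protocadherins. Pcdh15, known as a tip link protein of inner ear hair cells, measured 43.4, 55.8, 45.3, 16.01 and 55.7 CPM in wild-type and 63.5, 97.8, 46.7, 33.3 and 62.4 CPM in HSA-NRTN libraries. HSA-NRTN replicate 2 was the highest and the groups overlapped, with a log2 fold change of 0.49 (SE 0.37, 95% interval -0.31 to 1.28). It was 0.25 without that library and 0.27 without wild-type replicate 4. Cdh23, the other tip link cadherin, had only 52 counts, from 0 to 4.16 CPM. Pcdh20 measured 6.89, 13.6, 18.5, 4.303 and 10.5 CPM in wild-type and 0.593, 4.32, 5.495, 5.99 and 7.397 CPM in HSA-NRTN libraries. Only HSA-NRTN replicate 1 lay clearly below every wild-type library, and the log2 fold change was -1.16 (SE 0.68, 95% interval -2.62 to 0.29).

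The 12 type II cadherins were led by Cdh12, and 10 of them were tested. Cdh12 (Br-cadherin, chr15:20449265-21589533) measured 74.4, 127, 60.5, 168 and 129 CPM in wild-type and 93.7, 117, 116, 128 and 85.1 CPM in HSA-NRTN libraries. The HSA-NRTN values lay within the wider wild-type range, and the log2 fold change was -0.05 (SE 0.29, 95% interval -0.66 to 0.56). Cdh22 (PB-cadherin, chr2:165111507-165234853) measured 46.05 ± 15.01 CPM (SD, n = 5) in wild-type and 47.4 ± 19.7 CPM (SD, n = 5) in HSA-NRTN libraries, with a log2 fold change of 0.04 (SE 0.35, 95% interval -0.71 to 0.78). Cdh20, known as MN-cadherin from its place in motor pools of the chick, measured 20.4, 18.4, 7.27, 12.7 and 26.6 CPM in wild-type and 17.5, 40.5, 12.3, 5.42 and 14.5 CPM in HSA-NRTN libraries. The groups overlapped, and the log2 fold change was 0.06 (SE 0.54, 95% interval -1.08 to 1.199).

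The other type II genes known for marking motor pools were lower per kb than Cdh20. Cdh7 stood at 2.71 ± 2.09 CPM per kb, Cdh10 at 2.63 ± 1.09, Cdh9 at 2.18 ± 1.86, Cdh11 at 0.8497 ± 0.861, Cdh8 at 0.7295 ± 0.661 and Cdh6 at 0.498 ± 0.417 (SD, n = 10). Cdh11 (OB-cadherin) measured 0.918, 21.2, 7.27, 0.688 and 0.198 CPM in wild-type and 19.3, 11.3, 1.099, 7.696 and 5.92 CPM in HSA-NRTN libraries. Each genotype held libraries at 1.10 CPM or less and libraries above 7 CPM. Cdh8 measured 0.2295, 12.2, 10.6, 4.65 and 13.5 CPM in wild-type and 7.71, 0, 4.21, 3.28 and 0 CPM in HSA-NRTN libraries, with 0 counts in 2 HSA-NRTN libraries, and the log2 fold change was -1.40 (SE 1.09, 95% interval -3.73 to 0.92). Cdh18 ran from 0 to 28.4 CPM, with high and low libraries in both genotypes. Its log2 fold change was 0.23, beside 0.75 for Cdh6, 0.56 for Cdh7, -0.26 for Cdh9 and -0.06 for Cdh10. The 10 tested type II genes split into 6 positive and 4 negative differences, with a median of 0.05.

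Cdh19 and Cdh5 are type II genes known from glial and endothelial cells. Cdh19, known from the Schwann cell lineage, had 35 counts in wild-type replicate 1, 24 in HSA-NRTN replicate 2 and 9 in the other 8 libraries together. The Schwann cell marker Prx was at 0 in 9 libraries, whereas Sox10, which oligodendrocytes share, was at 0 in 1 library and Pmp22 was at 978 to 1713 CPM in HSA-NRTN and 816 to 1527 CPM in wild-type libraries. Cdh5, VE-cadherin of the vessel wall, had 14 counts, all in wild-type replicate 1, where the 6 endothelial markers summed to 16.1 CPM. That sum was 25.9 CPM in HSA-NRTN replicate 2 and 1.38 to 13.9 CPM in the other 8 libraries, and the endothelial marker Cldn5 was at 0 in 9 libraries. Kdr alone gave 13.3 of the 16.1 CPM in wild-type replicate 1. There Flt1 and Cldn5 were at 0, Ly6c1 at 0.459 CPM, and Pecam1 and Tek at 1.15 CPM each. The part of other cell types in these counts was not tested.

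Of the classical type I cadherins, only Cdh2 (N-cadherin), the main cadherin of neuronal adherens contacts, exceeded 2 CPM per kb. Cdh2 measured 20.9, 17.3, 11.96, 11.2 and 24.4 CPM in wild-type and 20.5, 43.8, 15.6, 20.2 and 16.03 CPM in HSA-NRTN libraries. HSA-NRTN replicate 2 was above all others and the remaining 4 HSA-NRTN values lay within the wild-type range. The log2 fold change was 0.43 (SE 0.42, 95% interval -0.48 to 1.33), and without HSA-NRTN replicate 2 it was 0.08. Cdh4 (R-cadherin) measured 6.003 ± 1.97 CPM (SD, n = 5) in wild-type and 6.37 ± 5.91 CPM (SD, n = 5) in HSA-NRTN libraries. Cdh1 (E-cadherin, the epithelial form) had 21 counts in all.

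Cdh15 (M-cadherin), known from muscle precursor cells, had the largest fitted difference of any tested member. It measured 3.902, 0, 3.28, 1.03 and 0 CPM in wild-type and 15.7, 15.7, 5.68, 1.85 and 1.73 CPM in HSA-NRTN libraries. Replicates 1, 2 and 3 of HSA-NRTN lay above all wild-type libraries and the other 2 within the wild-type range, with a log2 fold change of 2.27 (SE 1.11, 95% interval -0.097 to 4.64) that did not pass the test. It was 1.06 with the run of animal numbers as a covariate and 0.20 in females alone. The counts behind it were 53, 29, 31, 13 and 7 in HSA-NRTN replicates 1 to 5, beside 17, 0, 14, 6 and 0 in the wild-type ones. Genotype was uneven over the 2 runs of animal numbers. The first run held HSA-NRTN replicates 1, 2 and 3 with wild-type replicate 1. The second held HSA-NRTN replicates 4 and 5 with wild-type replicates 2 to 5. The labels do not say what the runs mark. Cdh13 (T-cadherin), which is held in the membrane by a lipid anchor and lacks the catenin-binding tail, was the one abundant gene among the other cadherins. It measured 40.9, 35.96, 60.3, 77.97 and 71.2 CPM in wild-type and 56.9, 101, 61.5, 94.8 and 92.96 CPM in HSA-NRTN libraries. The 3 highest values were from HSA-NRTN and the 2 lowest from wild-type mice, with overlap between, and the log2 fold change was 0.50 (SE 0.30, 95% interval -0.12 to 1.13) (unadjusted p = 0.108, adjusted p = 0.999, edgeR). Cdh17 (LI-cadherin) had 39 counts, 64.1% of them in 1 library.

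**Figure D3:**
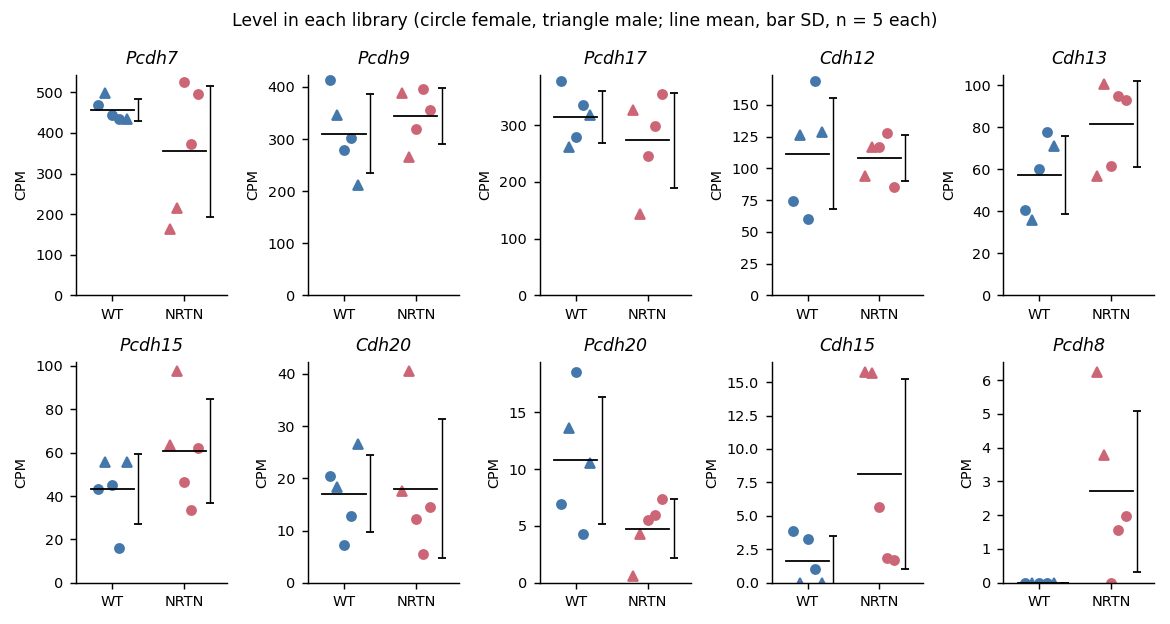
Each panel shows 1 gene in CPM, from 0, with 5 wild-type (blue) and 5 HSA-NRTN (red) libraries, circles for females and triangles for males, lines for means and bars for the SD (cut at 0). Pcdh7 is lowest, and Cdh15 highest, in the 2 male HSA-NRTN libraries, and Pcdh8 is at 0 in every wild-type library.

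The 3 protocadherin arrays differed widely in how many reads reached their genes. Including genes with that naming pattern in the reference annotation that the deposited tables leave out, the 22 beta genes had 7347 counts, the 22 gamma genes 351 and the 14 alpha gene entries 94. Pcdha11 enters the 14 under a second identifier too, which had 1 count. Of the genes in the deposited tables, 12 of 20 beta, 0 of 9 gamma and 0 of 3 alpha genes could be tested. Each alpha or gamma transcript joins its own first exon to constant exons shared by the whole array, while a beta gene is a single exon of its own. In the reference transcripts, a median of 60.98% of the 50-base stretches of an alpha gene and 47.4% of those of a gamma gene also occur in a transcript of another gene, against 4.48% for beta genes. The deposited files tally 0.737% to 2.12% of entries per library as ambiguous, so reads that met more than 1 gene under the authors' settings were set aside. How many of these lay in shared protocadherin exons cannot be read from the tally, and the counting mode is not stated. Levels of the arrays therefore cannot be compared with each other from these counts. The C-type genes, which many neurons use alongside the randomly chosen ones, were also sparse, with 3 counts for Pcdhac1, 6 for Pcdhac2, 3 for Pcdhgc3, 23 for Pcdhgc4 and 10 for Pcdhgc5. The highest alpha genes in the tables, Pcdha11, Pcdha9 and Pcdha2, had 18, 31 and 13 counts, and the highest gamma genes per kb, Pcdhga6, Pcdhga2 and Pcdhga12, had 51, 47 and 55. Levels per kb of these genes rest on the length used, with Pcdha11 at 0.312 by unshared and 0.0525 by all exons and Pcdhga6 at 0.389 and 0.215.

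Within the beta array, each pool of about 50 cells held counts of most genes, in differing proportions. Between 16 and 20 of the 20 beta genes had a count in each library, and their summed level was 114 to 270 CPM. Pcdhb9 took the largest share in 6 libraries, Pcdhb20 in 3 and Pcdhb22 in 1. The leading gene held 11.6% to 28.4% of the array's CPM, and the 5 leading genes 48.5% to 73.1%. These shares are not length-corrected. Per kb, Pcdhb9 (7.899 ± 3.09), Pcdhb12 (7.28 ± 6.64) and Pcdhb20 (5.61 ± 3.33) came first, but Pcdhb12 has only 36.5% unshared exon and stood at 2.66 CPM per kb over all its exons. Pcdhb9 measured 42.5, 21.8, 23.5, 33.4 and 9.52 CPM in wild-type and 30.3, 17.3, 18.1, 18.4 and 26.6 CPM in HSA-NRTN libraries. The HSA-NRTN values lay inside the wild-type range, with a log2 fold change of -0.24 (SE 0.41, 95% interval -1.12 to 0.64).

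**Figure D4:**
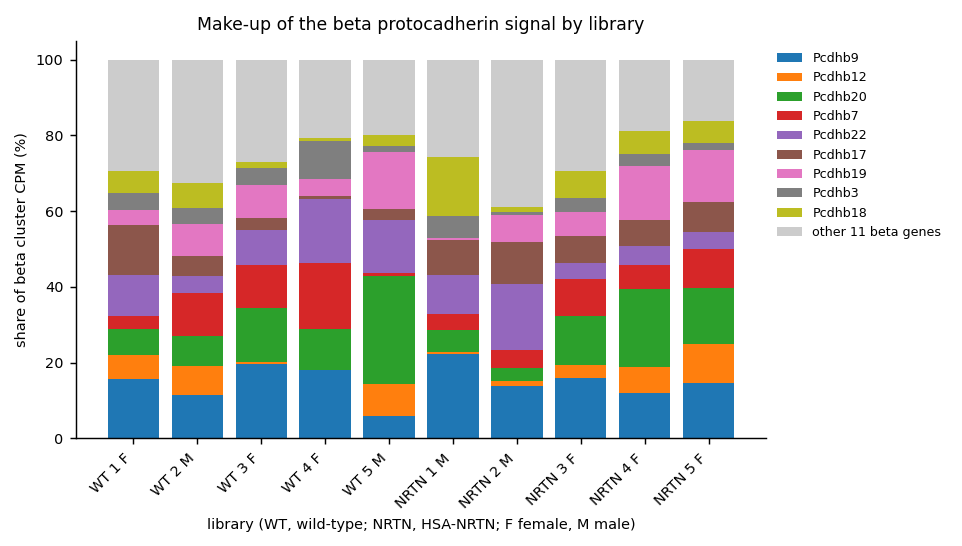
Stacked bars give the share of summed beta cluster CPM taken by each gene in each library, in percent, with the 9 leading genes coloured and the other 11 in grey. The leading share runs from 11.6% to 28.4%, and the leading gene differs between libraries of the same genotype.

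None of the 12 tested beta genes passed the genotype test, where all genes gave 0.0086%. The difference was above 0 for 3 of the 12 and below 0 for 9, and its median was -0.41 on the log2 scale, beside -0.01 over all genes. The array's summed level was 185 ± 55.3 CPM (SD, n = 5) in wild-type and 141 ± 26.1 CPM (SD, n = 5) in HSA-NRTN libraries, and the ranges overlapped, at 120.1 to 270.4 and 114 to 181 CPM. The highest wild-type sum was that of replicate 1, and without it the wild-type mean was 163 CPM. Pcdhb22 measured 28.9, 8.495, 11.3, 31.7 and 22.4 CPM in wild-type and 13.9, 21.6, 4.95, 7.84 and 8.38 CPM in HSA-NRTN libraries. The 3 lowest values were from HSA-NRTN libraries and the other 2 HSA-NRTN values lay within the wild-type range, with a log2 fold change of -0.88 (SE 0.53, 95% interval -2.001 to 0.24). Pcdhb3 had a log2 fold change of -1.13 (SE 0.71, 95% interval -2.63 to 0.38) and Pcdhb14 one of -0.82 (SE 0.61, 95% interval -2.11 to 0.48). Without wild-type replicate 4 the Pcdhb3 value was -0.71, and without wild-type replicate 1 the Pcdhb14 value was -0.45. Pcdhb15 showed how 1 library can carry a gene, with 142 of its 189 counts in wild-type replicate 1.

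Some of the sparse members had counts in libraries of 1 genotype only and were too low for the edgeR filter. Pcdh8 (arcadlin), a delta-2 protocadherin known as an activity-induced synaptic protein, had 21, 7, 0, 11 and 8 counts in HSA-NRTN replicates 1 to 5 and 0 in all 5 wild-type libraries. Pcdhga7 had 12, 0, 3, 8 and 7 counts in the same HSA-NRTN replicates and 0 in every wild-type library. Counts in at least 4 HSA-NRTN libraries and in 0 wild-type libraries were thus found for 2 of 62 members, against 0.492% of the 18698 genes. The reverse pattern was found for 0 members and 0.0428% of genes. Both genes were singled out after their values were seen. The level of 3 counts over the 5 wild-type libraries is 0.130 CPM. The pooled HSA-NRTN level was 16.6 times that level for Pcdh8 (2.16 CPM) and 10.6 times for Pcdhga7 (1.38 CPM). These ratios carry neither the counting error of the HSA-NRTN level nor the spread between mice, and each gene had an HSA-NRTN library at 0. With every gene of at least 1 count admitted, edgeR's unadjusted p was 0.00207 for Pcdh8 and 0.00611 for Pcdhga7, with adjusted p of 0.195 and 0.290, and DESeq2's adjusted p was 0.0666 and 0.307. The authors' deposited table gives Pcdh8 a p-value of 0.00256 and lists 4 members at an unadjusted p under 0.05, where 6.91% of genes there are, the others being Pcdhga12, Pcdhga7 and Cdh15. Pcdha2 had counts in HSA-NRTN libraries only (13, in 2 libraries). About 8.30% of the 50-base stretches of Pcdh8 and 49.6% of those of Pcdhga7 recur in transcripts of other genes.

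Between the sexes, 0 of 35 members passed edgeR's test with genotype in the model, against 0.0086% of all genes. At an unadjusted p under 0.05 there were 3 of 35, Cdh20, Pcdh15 and Pcdh7, beside 11.2% of all genes. DESeq2 and voom gave the same 3 (backgrounds 9.26% and 10.4%) and called 0 members (backgrounds 1.5% and 0%). Cdh20 had a lowest, median and highest level of 5.42, 12.5 and 20.4 CPM in the 6 females, and measured 18.4, 26.6, 17.5 and 40.5 CPM in the 4 males. The sexes overlapped, and the male minus female log2 difference was 1.09 (SE 0.47, 95% interval 0.08 to 2.10) (unadjusted p = 0.0363, adjusted p = 0.420, edgeR). Pcdh15 had 16.01, 44.3 and 62.4 CPM as its lowest, median and highest in females and 55.8, 55.7, 63.5 and 97.8 CPM in males. Its log2 difference was 0.72 (SE 0.33, 95% interval 0.02 to 1.43) (adjusted p = 0.438, edgeR). For Pcdh7 the log2 difference was -0.58 (SE 0.27, 95% interval -1.16 to -0.01) (adjusted p = 0.439, edgeR), and without HSA-NRTN replicate 1 it was -0.37. No member had sexes that did not overlap, as 2.27% of tested genes had.

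Pcdh7 and Cdh15 values stood apart in the 2 male HSA-NRTN libraries. Pcdh7 measured 165 and 215 CPM in the 2 male HSA-NRTN mice, against 499 and 434 CPM in the 2 wild-type males and 372 to 526 CPM in the 6 females. Cdh15 measured 15.7 CPM in both male HSA-NRTN mice, had 0 counts in both wild-type males and ranged from 1.03 to 5.68 CPM in the females. A genotype by sex term fitted over all genes, added after these values were seen, called 0 of 35 members (background 0%). At an unadjusted p under 0.05 it gave 6 of 35, namely Cdh15, Cdh6, Pcdh7, Pcdhb12, Pcdhb19 and Pcdhb20, where all genes gave 5.14%. The smallest adjusted p was 0.922. Pcdhb20, for example, measured 7.71 and 4.32 CPM in the male HSA-NRTN mice, 15.01 and 45.02 CPM in the wild-type males and 14.7 to 31.2 CPM in the females. For Pcdh7 the term was -1.35 (SE 0.40, 95% interval -2.199 to -0.497). The genotype difference of Pcdh7 was -1.30 on the log2 scale (SE 0.38, edgeR adjusted p = 0.728) in males alone and 0.068 (SE 0.23, adjusted p = 0.996) in females alone. Both male HSA-NRTN libraries lay above or below all 8 others for 5 of 35 members, Cdh15, Pcdh10, Pcdh15, Pcdh7 and Pcdhb20, beside 9.42% of tested genes. These 2 libraries also had the fewest gene counts (3257700 and 1875971), the largest shares of entries naming no gene (76.1% and 86.5%), and, with values of 817 and 814 CPM, the highest sums of 6 astrocyte markers, which reached 526 CPM in wild-type. Of the 814 CPM in HSA-NRTN replicate 2, the single gene Aldoc gave 731 CPM. Gfap and Aldh1l1 were also highest there, at 17.8 CPM each. Slc1a3 was at 0 in that library, and Gja1 (15.1 CPM) and Aqp4 (32.4 CPM) lay within the wild-type range. The 2 male HSA-NRTN mice have consecutive animal numbers in the first of 2 runs of numbers. That run also held 2 females, HSA-NRTN replicate 3 and wild-type replicate 1. These measured 526 and 468 CPM for Pcdh7, and 5.68 and 3.90 CPM for Cdh15. The parts of sex, run, depth and other cells in the values of the 2 male HSA-NRTN mice were not tested. With only 2 such animals they cannot be separated.

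Variation between libraries differed widely among the tested members. The biological coefficient of variation (edgeR's square root of the dispersion) had a median of 0.685 over the 35 members and 0.527 over all genes tested. It lay above the trend for its abundance in 15 of 35 members, against 36% of all genes. It was lowest for Pcdh9 (0.277), Pcdh17 (0.300), Pcdh7 (0.342) and Cdh12 (0.342), and exceeded 1 for Cdh8 (1.12), Cdh18 (1.08), Cdh15 (1.08), Cdh11 (1.07) and Pcdhb12 (1.04). Of these 5 genes, 3 are type II cadherins, and in each of them the wild-type libraries alone ranged from near 0 to above 10 CPM.

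**Figure D5:**
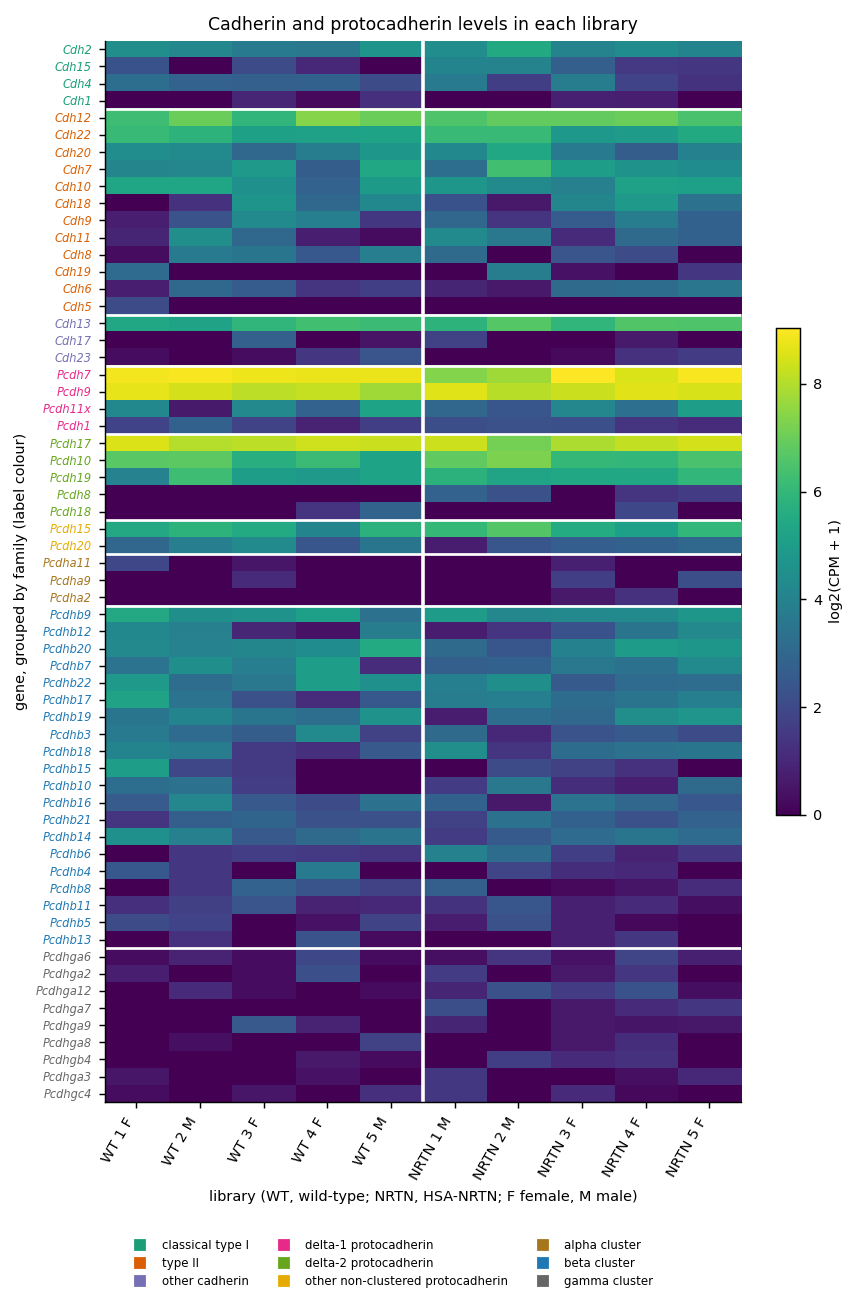
Colour gives log2(CPM + 1) of each of the 62 members (lines, grouped by family) in each of the 10 libraries (columns, wild-type left, HSA-NRTN right). Pcdh7, Pcdh9 and Pcdh17 are high in every library, and the type II and beta cluster lines change from library to library within a genotype.

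Genes that act with cadherins were read from the same fits. The catenins, which join classical cadherins to actin, gave 0 calls among 9 measured of 9 for genotype, and the smallest unadjusted p was that of Arvcf (log2 fold change 0.88, SE 0.58, unadjusted p = 0.147, edgeR adjusted p = 0.999). Other genes of the cadherin superfamily gave 0 calls among 8 measured of 23, with 2 positive and 6 negative differences. Among them were the calsyntenins, synaptic cadherin-like proteins, with Clstn2 at -0.54 (SE 0.29) and Clstn1 at -0.35 (SE 0.20). Protocadherin partners, such as WAVE complex subunits and the kinases Fyn and Ptk2, gave 0 calls among 17 of 17. Regulators of clustered protocadherin choice, such as Ctcf and cohesin subunits, gave 0 calls among 12 of 13, and Nipbl, the cohesin loader, had the smallest p (log2 fold change -0.89, SE 0.45, unadjusted p = 0.0663, edgeR adjusted p = 0.999). No list held a gene with an unadjusted p under 0.05 for genotype, where 4.83% of all genes tested had one. Between the sexes the 4 lists also gave 0 calls. There 3 of 17 partners (Abi1, Cyfip1 and Wasf2) and 2 of 12 regulators (Ctcf and Wiz) had an unadjusted p under 0.05 in edgeR. The other 2 lists had 0 such genes, and the share over all genes tested was 11.2%. Median genotype differences of the lists were 0.22 (catenins), -0.32 (other superfamily genes), 0.09 (partners) and 0.00 (regulators), beside -0.01 over all genes.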

How the data were processed

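RNA of about 50 laser-captured motor neurons per mouse was made into Smart-seq2 libraries without molecular identifiers, per the labels' protocols. The submitters' processing notes name STAR 2.5.0a, HTSeq and the build GRCm38.p6, and no source used here gives the counting mode or annotation release. Each library's deposited file lists raw counts of 51912 genes, with 92 ERCC spike-ins and 5 tally entries naming no gene, which took 57.6% to 86.5% of all entries and were left out. The deposited normalized signal is a fixed multiple of these counts within each library and was used only to list genes. The authors' deposited comparison holds a log2 fold change, p-value and adjusted p per gene, and DESeq2 is among the tools of the notes. The deposited table also gives the authors' test score per gene, which was not used.

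Counts of all genes were fitted with edgeR 4.0.16 in R 4.3.3 (TMM, filterByExpr, quasi-likelihood F test, Benjamini-Hochberg over 11630 genes, threshold 0.05). DESeq2 1.42.0 and limma 3.58.1 voom were alternatives. Standard errors are the absolute log2 fold change over the square root of F. The test was also run on simulated counts drawn at the trended dispersion. Of the 35 tested members, 15 lie above that trend, so the simulation does not show how often a change in those would be found. Exon lengths and shared 50-base stretches come from GENCODE M21, which matches GRCm38. Replicate numbers follow record order and pair no animals, and p-values of the main genotype test measure the spread between 5 mice per genotype. Those for sex rest on 6 females and 4 males. Fits of the genotype by sex term or of 1 sex rest on 3 females or 2 males per genotype. PCR without molecular identifiers means that count floors cover counting error only.

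Members and lists were chosen with earlier results of these data known. Named genes were those at an unadjusted p under 0.05 for genotype or sex, the 3 highest per kb in each family, the type II genes of motor pools, the C-type clustered genes, and Cdh5 and Cdh19; others are named as outside this rule or to complete a count of 5 or fewer, a family or a list. A further 31 genes whose reference symbols fit the pattern are not in the deposited tables and had at most 10 counts each, 10 of them 0, which allows up to 0.0670 CPM (3 counts over all libraries).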

Additional observations from a re-analysis of the deposited data

Results flagged for a closer look

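For 3 members there was 1 library standing apart from the other 4 of its genotype, with a gap to its nearest neighbour above 0.71 of the group's range. Cdh2 measured 43.8 CPM in HSA-NRTN replicate 2 and 15.6 to 20.5 CPM in the other HSA-NRTN libraries. Pcdhb17 measured 36.03 CPM in wild-type replicate 1 and 1.205 to 9.91 CPM elsewhere in its group. Pcdhb20 measured 45.02 CPM in wild-type replicate 5 and 15.01 to 19.96 CPM elsewhere in its group. This is 3 of 70 groups examined, or 4.29%, and chance marks about 1 group in 20. The first 2 libraries are those with the highest oligodendrocyte marker sums, 1419 and 641 CPM, and the part of other cells in these values was not tested.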

How the results depend on the processing

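No member was called for genotype under any of 21 settings, for sex under any of 17, or for the genotype by sex term under any of 11. All 3 were refitted with each library left out in turn, and for the genotype by sex term nothing else was varied. Genotype and sex were also refitted with other count filters, RLE scaling, DESeq2 and voom, and sex without genotype in the model. For genotype alone the settings included covariates, each sex alone and the joint omission of wild-type replicate 1 with HSA-NRTN replicate 2. The smallest adjusted p over the alternatives was 0.0666, 0.148 and 0.324. Members at an unadjusted p under 0.05 numbered 0 to 5, 0 to 7 and 4 to 7, with 35 to 62, 35 to 62 and 35 members given an adjusted p. In the main fits 4.83%, 11.2% and 5.14% of all genes tested were under that level. DESeq2, which gave the 5 for genotype, had 5.21% of genes under it. Such shares for the refits without a library are not given here. Calls among all genes numbered 0 to 126, 0 to 315 and 0 over the settings. The sex setting with 7 members, without wild-type replicate 1, called 178 genes. The log2 fold change of Pcdh7 became 0.068, and that of Pcdh10 -0.066, in females alone, and that of Pcdhb22 became 0.19 in males alone; the cause was not tested. Leaving out single libraries gave 1.87 to 2.84 for Cdh15, -0.55 to -0.17 for Pcdh7, 0.08 to 0.58 for Cdh2, 0.14 to 0.54 for Pcdh10, 0.25 to 0.64 for Pcdh15, -1.05 to -0.45 for Pcdhb14 and -1.44 to -0.71 for Pcdhb3. Cdh15 was at 1.06 with the animal number run as a covariate and 0.20 in females alone. In males alone the wild-type libraries had 0 counts of Cdh15, so no fitted value is given. Pcdhb14 was at -0.35 under the joint omission. Summed family levels and levels per kb of the named genes moved by less than 1 SD under the other scaling, length and library choices, but that SD is wide for sparse genes, and the wild-type alpha sum was 0.879 CPM in all libraries and 0.411 CPM without replicate 1. No paired analysis was possible because replicate numbers follow record order and pair no animals.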
